A study of Homo sapiens with 6 samples.

Results

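The Polycomb repressor genes named here code for the enzymes and core subunits of the Polycomb complexes, and were picked by symbol: EZH1, EZH2, EED, SUZ12, JARID2, BMI1, RING1, RNF2, CBX2 and CBX7. A probe set was used where the platform annotation gave it exactly 1 gene symbol, and where a gene had several, the brightest over the 6 arrays stood for it. By this rule 8 of the 10 genes were measured, among 18417 genes in all. The probe set that holds BMI1 also carries a second symbol, the readthrough COMMD3-BMI1, and RNF2 is unnamed in the annotation used here, so neither gene has a value.

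Polycomb proteins keep developmental genes silent. Polycomb repressive complex 2 (PRC2) methylates histone H3 at lysine 27 through EZH2 or its relative EZH1, held together by SUZ12 and EED, and Polycomb repressive complex 1 (PRC1) attaches ubiquitin to histone H2A through RING1 or RNF2, with CBX proteins that read the PRC2 mark. In Ewing tumors, which carry an EWSR1-ETS fusion, EZH2 is a known target of the fusion and is known to hold back neural and endothelial differentiation.

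RNA came from the established Ewing tumor cell lines SK-N-MC and A673, on 6 Affymetrix arrays. Each line gave 1 array of cells with a control siRNA and 2 arrays of cells with an siRNA against STEAP1, all at 5 nM for 48 h. The titles number the STEAP1 arrays 2 and 3, read here as the number of the siRNA. The titles do not say so, and the A673 control is itself numbered 2. Untreated cells were not analysed here, and each group stands for 1 cell line, a model of its own tumor. Values are log2 of the deposited intensity, and an error of a difference is the standard error (SE) of a limma fit across all genes, with Benjamini-Hochberg adjusted p-values called under 0.05. Whether the arrays of a line came from separate cultures is not stated, so a p-value here measures the spread among these arrays alone, which may be technical.

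Gene medians of the 6 arrays lay between 3.21 and 3.24, and arrays correlated across genes at 0.986 to 0.993 within a line and 0.946 to 0.949 between lines. Of 5 further Ewing markers 4 were measured, CD99, NKX2-2, LIPI and CCND1, and lay between 5.57 and 10.3 in all arrays, while the markers of other cells (PTPRC, EPCAM, PECAM1, ALB and MYOD1) lay between 1.01 and 2.26. STEAP1, the siRNA target, was left at 12.7% and 18.7% of its SK-N-MC control and at 30.8% and 32.1% of its A673 control.

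The first comparison sets the lines side by side, with a term for silencing. The PRC2 enzymes and SUZ12, the PRC2 cofactor JARID2, and the PRC1 genes RING1 and CBX2 were all higher in SK-N-MC than in A673, from 1.40-fold for CBX2 to 2.83-fold for JARID2. EED, the PRC2 subunit that binds the methylated histone tail, and CBX7 were not called. Limma thus called 6 of the 8 genes, each lower in A673, where 24.8% of all genes were called in either direction, 11.4% lower and 13.5% higher in A673. Of the 7413 genes whose mean log2 reached 4, as it did for 7 of the 8, 16.4% were lower and 22.5% higher in A673. The arrays of the lines did not overlap for the same 6 genes, nor for 37.9% of all genes, of which those lower in A673 make up 18.5% of all genes. The median difference of the 8 genes (A673 minus SK-N-MC) was -0.66, beside -0.02 over all genes.

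**Figure D1:**
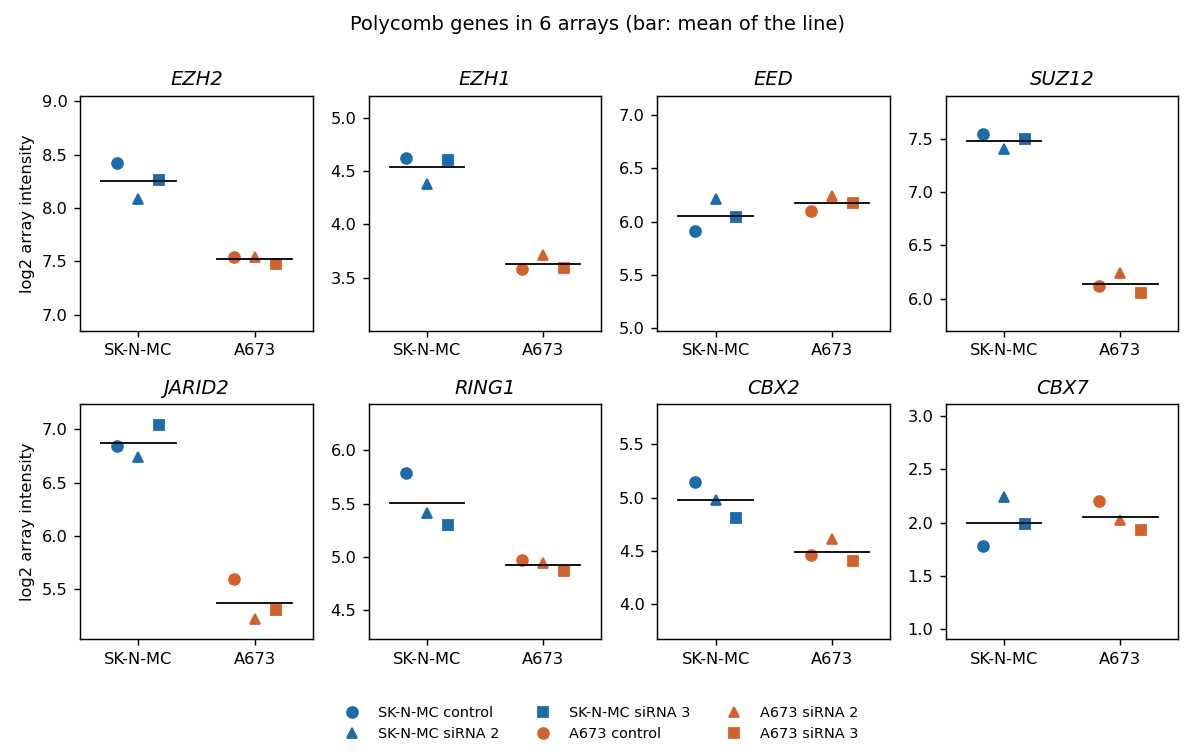
Log2 array intensity (vertical axis, each panel with its own range) of the 8 measured Polycomb genes in the 3 SK-N-MC arrays and the 3 A673 arrays. Circles are control arrays, triangles siRNA 2, squares siRNA 3, and bars the mean of the line. For EZH2, EZH1, SUZ12, JARID2, RING1 and CBX2 every SK-N-MC array lies above every A673 array, and for EED and CBX7 the lines overlap.

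EZH2, the main methyltransferase of PRC2 in dividing cells, stood at 8.42, 8.09 and 8.27 in SK-N-MC (control, siRNA 2, siRNA 3) and at 7.54, 7.54 and 7.48 in A673. All 3 SK-N-MC arrays lay above all 3 A673 arrays, with means of 8.26 ± 0.17 (SD, n = 3) and 7.52 ± 0.036 (SD, n = 3). The difference was -0.74 (SE 0.11, limma adjusted p = 0.00172), which is 1.67-fold more in SK-N-MC.

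EZH1, the second methyltransferase, which is known to prevail in resting cells, was likewise higher in SK-N-MC. It stood at 4.62, 4.38 and 4.60 in SK-N-MC (control, siRNA 2, siRNA 3) and at 3.58, 3.71 and 3.59 in A673. The lines did not overlap, and the difference was -0.91 (SE 0.12, limma adjusted p = 7.3e-04), or 1.87-fold more in SK-N-MC.

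SUZ12, the scaffold on which PRC2 assembles, had the smallest p of the 8 genes. It stood at 7.54, 7.41 and 7.50 in SK-N-MC and at 6.12, 6.24 and 6.06 in A673, and the lines lay far apart beside the spread within either (SD 0.069 and 0.093, n = 3 each). The difference was -1.35 (SE 0.11, limma adjusted p = 6.56e-05), or 2.54-fold more in SK-N-MC. Only 1.62% of all genes had a more negative difference.

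EED stood at 5.91, 6.21 and 6.04 in SK-N-MC and at 6.10, 6.24 and 6.17 in A673. The lines overlapped, and the difference was 0.12 (SE 0.11, limma adjusted p = 0.519) with a 95% interval from -0.13 to 0.37. That interval does not reach the differences of EZH2, EZH1 or SUZ12, whose own upper bounds were -0.48, -0.64 and -1.10. The gap between EED and these 3 genes was not itself tested.

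JARID2, a DNA-binding cofactor that helps to bring PRC2 to its sites, had the largest difference. It stood at 6.85, 6.74 and 7.04 in SK-N-MC and at 5.60, 5.22 and 5.31 in A673. All SK-N-MC arrays lay above all A673 arrays, by -1.50 (SE 0.13, limma adjusted p = 1.07e-04), or 2.83-fold more in SK-N-MC, and 1.23% of all genes had a more negative difference.

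The sequences before the start sites of EZH2, of the 2 genes with the largest differences and of EED, a core subunit that was not called, are shown to set side by side what lies upstream of PRC2 genes with and without a call. Each is the 250 bases before a RefSeq gene start (GRCh38.p14), 5′ to 3′ on the gene's strand, and capitals mark a CCAAT box (CCAAT, bound by NF-Y) or an E2F site (TTTGGCGC, TTTCGCGC or TTTCCCGC), searched on both strands. EZH2 lies at chr7:148884292-148884541 (minus strand), SUZ12 at chr17:31936757-31937006 (plus strand), JARID2 at chr6:15245819-15246068 (plus strand) and EED at chr11:86244503-86244752 (plus strand).
EZH2: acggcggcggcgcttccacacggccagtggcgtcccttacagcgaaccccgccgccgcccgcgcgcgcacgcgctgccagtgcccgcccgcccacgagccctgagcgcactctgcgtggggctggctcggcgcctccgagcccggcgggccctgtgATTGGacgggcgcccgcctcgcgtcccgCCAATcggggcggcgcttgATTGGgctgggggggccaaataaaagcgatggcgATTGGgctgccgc
SUZ12: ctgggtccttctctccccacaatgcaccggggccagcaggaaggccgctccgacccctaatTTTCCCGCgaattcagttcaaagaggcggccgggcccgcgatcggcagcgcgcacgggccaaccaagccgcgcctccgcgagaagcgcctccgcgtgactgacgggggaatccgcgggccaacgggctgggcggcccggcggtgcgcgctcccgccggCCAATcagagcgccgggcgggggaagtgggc
JARID2: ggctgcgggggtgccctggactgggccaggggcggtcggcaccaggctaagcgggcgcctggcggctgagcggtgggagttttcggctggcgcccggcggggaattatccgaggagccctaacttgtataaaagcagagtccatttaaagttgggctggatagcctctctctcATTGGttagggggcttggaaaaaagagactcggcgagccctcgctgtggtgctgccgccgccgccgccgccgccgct
EED: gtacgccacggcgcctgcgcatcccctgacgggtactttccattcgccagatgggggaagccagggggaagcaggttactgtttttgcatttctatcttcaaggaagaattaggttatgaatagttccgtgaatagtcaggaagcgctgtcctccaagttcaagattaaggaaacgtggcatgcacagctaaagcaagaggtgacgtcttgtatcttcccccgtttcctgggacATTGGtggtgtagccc

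The window of EZH2 held 4 CCAAT boxes, and those of SUZ12, JARID2 and EED 1 each. In windows of 300 bases, which add the 50 bases after the start, 34.6% of 35116 RefSeq promoter entries held at least 1 CCAAT box and 0.991% held 4 or more. SUZ12 also held an E2F site beginning 189 bases before its start, and EZH2 held 1 just after its start, outside the printed window; 2.74% of entries held one. The paired ETS core GGAAGGAA (in 3.67% of entries) and the ETS site CCGGAAGT (in 4.14%) had no match in the entries of the 9 genes that have one. EZH2 and JARID2 have a further entry each, with none of these motifs, and CBX2 has none. Among the rest CBX7 held 1 CCAAT box, and EZH1 and RING1 held none of the motifs. A match is a description of letters only, and the boxes stood before genes that were called and before EED and CBX7, which were not.

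RING1, a ubiquitin ligase of PRC1, stood at 5.79, 5.42 and 5.30 in SK-N-MC and at 4.97, 4.94 and 4.87 in A673. The lines did not overlap, and the difference was -0.57 (SE 0.12, limma adjusted p = 0.00848), or 1.49-fold more in SK-N-MC. A second probe set of RING1 gave -0.53. The highest value was that of the SK-N-MC control array, and with the 4 siRNA arrays alone the difference was -0.45 and no longer called (limma adjusted p = 0.0659).

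CBX2, a chromodomain subunit that compacts chromatin, stood at 5.15, 4.98 and 4.81 in SK-N-MC and at 4.46, 4.61 and 4.41 in A673. The lines did not overlap, and the difference was -0.48 (SE 0.12, limma adjusted p = 0.0212), the smallest of the 6 called. Its call was lost with the 4 siRNA arrays alone, which is also the value without either control array (-0.39, limma adjusted p = 0.138). It was lost as well without the SK-N-MC siRNA 2 array (-0.46, adjusted p = 0.0533) and without the A673 siRNA 3 array (-0.45, adjusted p = 0.0833).

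CBX7, a chromodomain subunit of PRC1 known from stem cells, was dim, at 1.78, 2.24 and 1.99 in SK-N-MC and at 2.21, 2.02 and 1.93 in A673, below the gene median of every array. Its lines overlapped, with a difference of 0.05 (95% interval -0.28 to 0.39). No detection calls were used, so a value this low has no stated floor and a difference may not show at it.

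**Figure D2:**
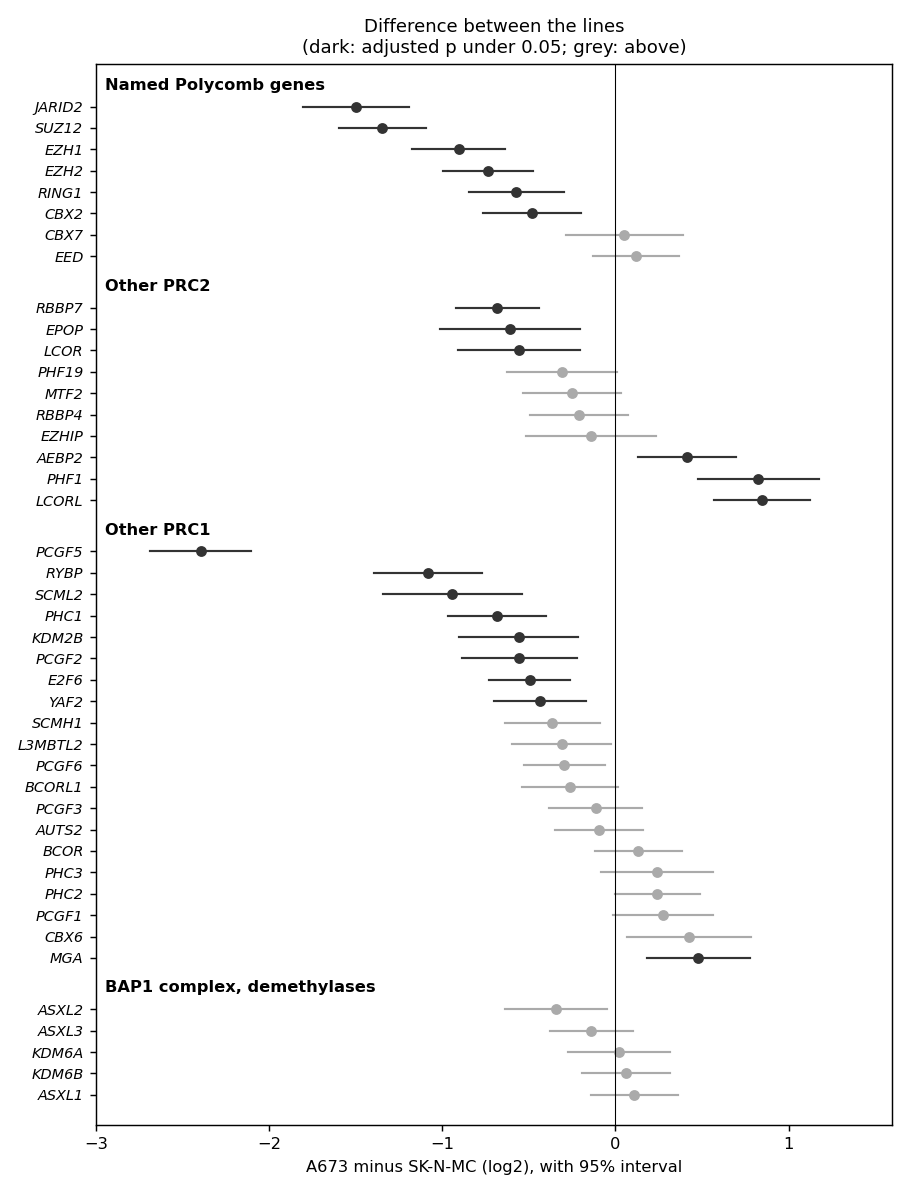
Difference between the lines (A673 minus SK-N-MC, log2, horizontal axis) with its 95% interval for the 8 measured Polycomb genes and 3 further lists. Dark points were called by limma and grey points were not. All called genes among the 8 lie on the SK-N-MC side, and the other PRC2 genes lie on both sides.

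Most other genes of PRC1 that were called were also higher in SK-N-MC. Of 20 measured of 22 listed, 8 were lower in A673, 1 was higher and 11 were not called, with a median difference of -0.30. Over all genes 11.4% were lower and 13.5% higher. With only genes whose mean log2 reached 4, limma called 8 of 17 lower and 1 higher, where it called 42.5% of all such genes in either direction. PCGF5, a ring finger partner of RING1 and RNF2 in variant PRC1, differed by -2.40 (SE 0.13, limma adjusted p = 8.07e-06), or 5.27-fold. It stood at 6.22, 5.90 and 6.00 in SK-N-MC and at 3.52, 3.76 and 3.64 in A673. RYBP, which defines variant PRC1, differed by -1.08 (SE 0.14), SCML2 by -0.94 (SE 0.17) and the polyhomeotic gene PHC1 by -0.69 (SE 0.12). MGA, a transcription factor that guides a variant PRC1, was higher in A673, by 0.48 (SE 0.13, limma adjusted p = 0.0279). The list count fell from 9 to 5 with the siRNA arrays alone, without either control array and without the A673 siRNA 3 array.

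The further PRC2 genes went both ways. Of 10 measured, 3 were lower in A673, 3 were higher and 4 were not called, beside 11.4% and 13.5% of all genes, with a median of -0.23. RBBP7, a histone-binding PRC2 subunit, differed by -0.68 (SE 0.10, limma adjusted p = 0.00184), and EPOP, an accessory subunit, by -0.61 (SE 0.18), below the gene median of 5 arrays; its call was lost with the siRNA arrays alone (-0.70, limma adjusted p = 0.0860). PHF1, a Polycomb-like protein that links PRC2 to DNA and marked histones, was higher in A673, by 0.82 (SE 0.15, limma adjusted p = 0.00451), and LCORL by 0.85 (SE 0.12). LCORL lay below the gene median of the 3 SK-N-MC arrays, where the size of a fold is uncertain. RBBP4, the relative of RBBP7, was not called (-0.21, SE 0.12). The list count fell from 6 to 3 with the siRNA arrays alone and without any one array except SK-N-MC siRNA 2 or siRNA 3.

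Genes tied to the removal of the Polycomb histone marks were read from a short list. Of 6 listed genes of the BAP1 deubiquitinase complex and the lysine 27 demethylases, 5 were measured: ASXL1, ASXL2, ASXL3, KDM6A and KDM6B. BAP1 itself is not among them, and ASXL3 lay below the gene median of every array. Limma called 0 of the 5, beside 24.8% of all genes. Of the 5, 1 had an unadjusted p under 0.05 in limma (ASXL2, -0.34, SE 0.13), as did 34.1% of all genes. The demethylases KDM6A and KDM6B differed by 0.02 (SE 0.13) and 0.06 (SE 0.11), with 95% intervals from -0.28 to 0.32 and from -0.20 to 0.31.

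Genes known as Polycomb targets were read from a pair of lists. Of 4 CDK inhibitor genes that Polycomb holds down in many cells, CDKN2A alone was called, where 24.8% of all genes were called. It stood at 6.58, 6.05 and 6.39 in SK-N-MC and at 2.65, 2.49 and 2.38 in A673, below the gene medians, with a difference of -3.83 (SE 0.13, limma adjusted p = 7.45e-07). A673 is known for a homozygous deletion of CDKN2A. CDKN2B, CDKN1A and CDKN1C differed by -0.13, -0.08 and -0.27, without a call. CDKN2B lay below the gene median of every array, where a difference may not show.

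Of 5 neural and endothelial genes known to rise when EZH2 is silenced in Ewing cells, 4 were measured, and they did not move one way. EMP1, a membrane protein gene, stood at 2.11, 2.40 and 1.61 in SK-N-MC and at 4.92, 4.84 and 5.36 in A673. GAP43, a growth cone gene, stood at 2.23, 1.91 and 2.08 in SK-N-MC and at 4.92, 4.50 and 5.42 in A673. Both were higher in A673, by 3.00 (SE 0.22) and 2.87 (SE 0.22), with limma adjusted p-values of 3.81e-05 and 4.66e-05. A673 is also the line with less EZH2, and a link between these genes and EZH2 was not tested. NGFR, a neurotrophin receptor gene, was higher in SK-N-MC (-0.98, SE 0.17, limma adjusted p = 0.00341). GFAP was dim in both lines and not called (-0.30, SE 0.11, limma adjusted p = 0.0734). EMP1 and GAP43 lay below the gene medians in SK-N-MC, where the size of a fold is uncertain.

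**Figure D3:**
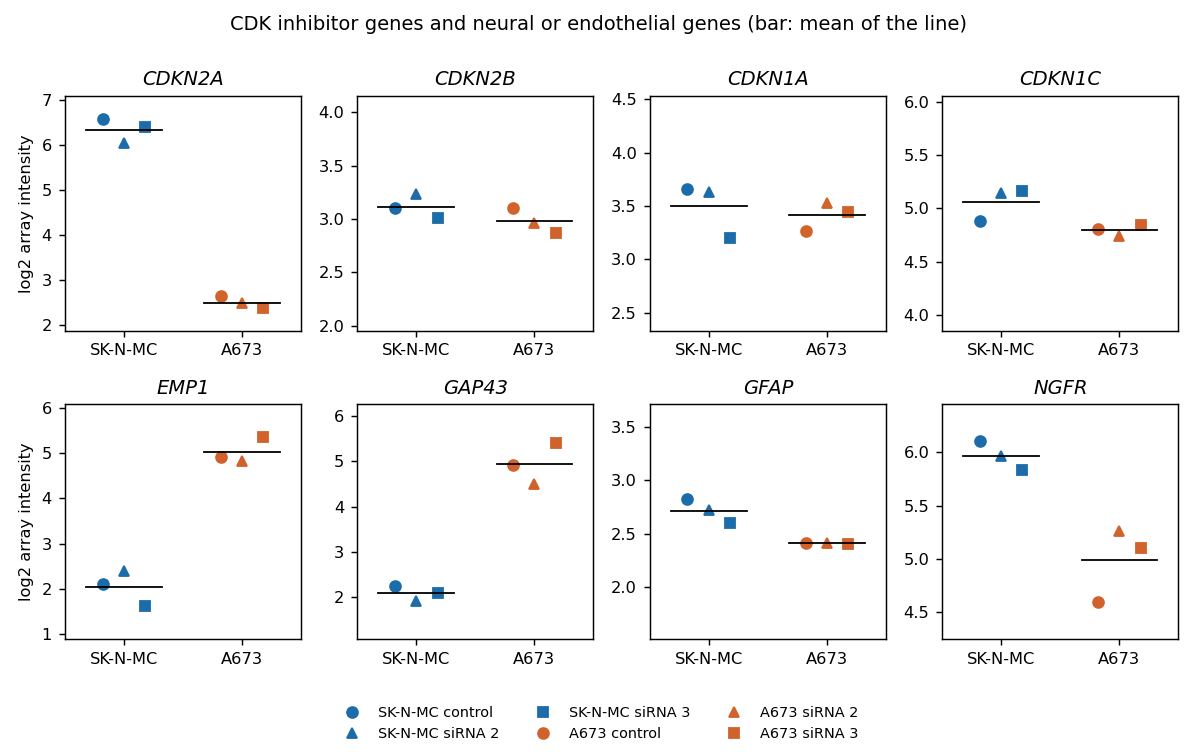
Log2 array intensity (vertical axis, each panel with its own range) of 4 CDK inhibitor genes and 4 neural or endothelial genes in the 6 arrays, drawn with the same symbols and bars as the plot of the Polycomb genes. CDKN2A and NGFR are higher in every SK-N-MC array, as are CDKN1C and GFAP by smaller differences that were not called, and EMP1 and GAP43 in every A673 array.

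Next, each siRNA array was set against the control array of its line, to see how the Polycomb genes stood beside STEAP1. With 1 control array per line the test did not call STEAP1 itself, whose difference across lines was -2.18 (SE 0.24, limma adjusted p = 0.293), with adjusted p-values of 0.0681 within SK-N-MC and 1.00 within A673. A missing call is therefore not informative here, and the sizes and intervals are what these arrays give. Across both lines limma called 0 of the 8 genes, as it called 0% of all genes, and 0 of the 8 had an unadjusted p under 0.05, beside 4.63% of all genes. The differences ran from -0.25 for RING1 to 0.16 for EED, with a median of -0.07 beside -0.01 over all genes. For EZH2 the difference was -0.14 (SE 0.12, 95% interval -0.41 to 0.14), and for SUZ12 -0.03 (SE 0.12, 95% interval -0.30 to 0.24).

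**Figure D4:**
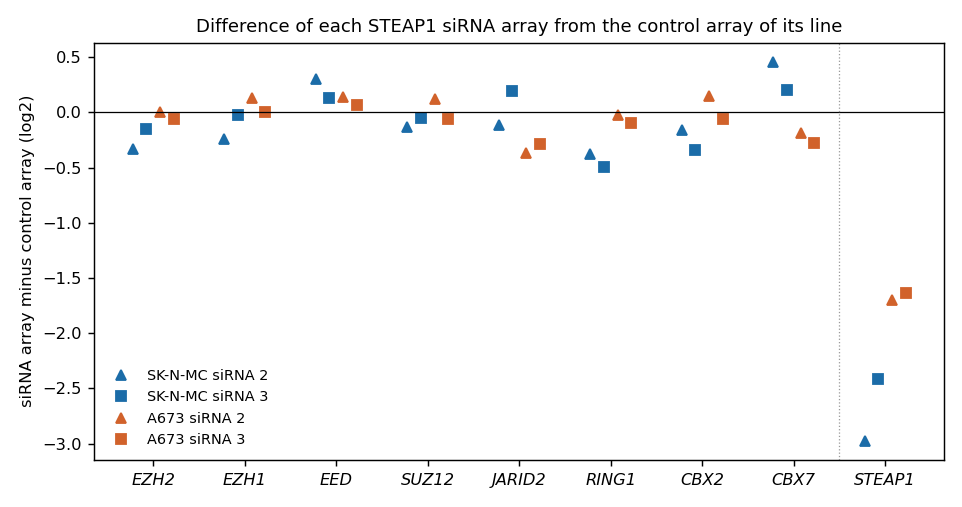
Difference of each siRNA array from the control array of its line (log2, vertical axis) for the 8 measured Polycomb genes and for STEAP1, the target. Triangles are siRNA 2 and squares siRNA 3. The Polycomb genes lie between -0.49 and 0.46, and STEAP1 between -2.98 and -1.64.

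By the probe set used, RING1 was lower in 4 of 4 siRNA arrays. It lay at -0.37 and -0.49 in SK-N-MC (siRNA 2, siRNA 3) and at -0.03 and -0.10 in A673. Its second probe set was also lower in SK-N-MC, at 5.20 and 5.14 beside 5.68 in the control array. In A673 that probe set was higher, at 4.84 with either siRNA beside 4.74 in the control array. EED was higher in 4 of 4, at 0.30 and 0.13 in SK-N-MC and at 0.14 and 0.07 in A673. Of all genes, 11.2% were lower and 10.6% higher in all 4 arrays, and the arrays of a line share 1 control array. The difference of RING1 across lines was -0.25 (SE 0.13, 95% interval -0.54 to 0.04, limma adjusted p = 0.989), and that of EED 0.16 (SE 0.11, 95% interval -0.10 to 0.42, limma adjusted p = 0.989).

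Within SK-N-MC limma called 0 of the 8 genes, where it called 0.00543% of all genes, and RING1 alone had an unadjusted p under 0.05, as did 5.12% of all genes. RING1 differed by -0.43 (SE 0.17, 95% interval -0.82 to -0.04, limma adjusted p = 0.939). EZH2 was left at 79.5% of its control with siRNA 2 and at 89.9% with siRNA 3, a difference of -0.24 (SE 0.17, limma adjusted p = 0.993). CBX2 differed by -0.25 (SE 0.18) and CBX7 by 0.33 (SE 0.18), and the other 4 genes by -0.13 to 0.21.

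Within A673 limma called 0 of the 8 genes, as it called 0% of all genes, with 0 of the 8 and 3.35% of all genes at an unadjusted p under 0.05. EZH2 lay 1.16e-04 above its control with siRNA 2 and at -0.06 from it with siRNA 3, a difference of -0.03 (SE 0.17, 95% interval -0.44 to 0.38). JARID2 had the largest difference, at 77.3% and 81.9% of its control (-0.33, SE 0.19, limma adjusted p = 1.00), while in SK-N-MC cells it stood at 92.7% and 115%. The other 7 genes differed by -0.23 to 0.10.

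The gap between the lines in their response (A673 less SK-N-MC) was put to a test of its own. Limma called 0 of the 8 genes, as it called 0% of all genes, with 0 of the 8 and 3.86% of all genes at an unadjusted p under 0.05. EZH2 differed by 0.21 (SE 0.24) and JARID2 by -0.37 (SE 0.27). With 1 control array per line these differences carry wide intervals, for EZH2 from -0.36 to 0.79.

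Between siRNA 2 and siRNA 3, limma called 0 of the 8 genes, as it called 0% of all genes, with 0 of the 8 and 6.67% of all genes at an unadjusted p under 0.05. The differences ran from -0.19 for JARID2 (SE 0.16) to 0.19 for CBX2 (SE 0.14), and EZH2 stood at -0.06 (SE 0.14).

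None of the further Polycomb genes was called in a comparison of siRNA arrays either, by limma over all genes. Of the 20 other PRC1 genes, 15 were lower in SK-N-MC and 14 higher in A673, at medians of -0.13 and 0.11. Of all 18417 genes, 9375 were lower in SK-N-MC and 9108 higher in A673, at medians of -0.0040 and -0.0028. Each of these values shares the control array of its line. The neurotrophin receptor gene NGFR stood at 5.27 and 5.10 with the siRNAs in A673 beside 4.59 in the control array, a difference of 0.59 that was not called. In SK-N-MC it lay the other way, at -0.14 and -0.27 from the control array with siRNA 2 and siRNA 3. Such opposite signs in the 4 siRNA arrays were seen for 20% of all genes. The other measured genes of the NGFR list did not rise with both siRNAs in A673. There EMP1 stood at -0.08 and 0.44 from the control array (siRNA 2, siRNA 3), GAP43 at -0.42 and 0.50, and GFAP at -0.0040 and -0.012.

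The genes whose levels ran most like those of EZH2 over the 6 arrays, among 2390 genes whose mean log2 reached 6, were RIMOC1 (Pearson r = 0.999), KDM5C (0.997) and IFI6 (0.996). Among the Polycomb genes at that level SUZ12 (r = 0.980) and JARID2 (r = 0.963) came closest to EZH2; dimmer ones such as EZH1 were not ranked. PHC3 (r = -0.508), EED (r = -0.703) and AEBP2 (r = -0.906) had a negative r with EZH2. Of the genes compared, 60.8%, 68.7% and 85.5% ranked above them. For JARID2, the gene with the largest line difference, the nearest were LMAN2 (r = 0.997), H1-2 (r = 0.997) and UTP6 (r = 0.996). The points are 2 lines of 3 arrays each, so r is a description that holds the line difference within it, and many genes share it: 189 genes had an r over 0.95 with EZH2 and 193 with JARID2.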

How the data were processed

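RNA of 6 samples was measured on Affymetrix gene arrays. The authors deposited intensities on a linear scale, summarised by RMA; the submitters' processing notes name Affymetrix Expression Console 1.1. How RMA's log values became linear again is not given in these sources. Per the labels' protocols, 200 ng of RNA was labelled. RMA normalizes arrays to a common distribution, so a shift shared by all genes cannot be seen. No scanner files, detection calls, slides or scan dates were used here, so other background corrections and batches were not tried, and precision is limited by the number of arrays.

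Log2 was taken with no further normalization. The value table holds 33297 probe sets, of which 19460 carry 1 symbol in the platform annotation; symbols were updated through RefSeq (GRCh38.p14, 19429 matched by gene identifier). The brightest probe set of a gene was kept, for 18417 genes. Limma 3.58.1 in R 4.3.3 (lmFit, eBayes, two-sided) fitted line plus silencing (3 residual degrees of freedom) for the difference between the lines and for silencing across them, 4 group means (2) within lines and for the difference of responses, and line plus a term for each siRNA (2) for the siRNAs. Both siRNAs count as replicates of silencing. The fit of line plus silencing was tested on simulated data with an equal spread for all genes. The other fits were not.

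All measured members are named. From each other list, up to 4 called genes with the largest line difference are named, and MGA, RBBP4, ASXL2, KDM6A, KDM6B and the list members without a call were picked out once their values were known. The members and lists were chosen with earlier results of these data known. Alternatives tried were median centring, a second quantile normalization, limits on low values, the mean of probe sets, a spread with a trend, a replicate block, the siRNA arrays alone and each array left out.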

Additional observations from a re-analysis of the deposited data

Results flagged for a closer look

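The siRNA arrays of the lines moved apart for 2 of the 8 Polycomb genes, with every array of one line on one side of its control array and every array of the other line on the opposite side. CBX7 was higher in SK-N-MC (0.46 and 0.21) and lower in A673 (-0.19 and -0.27). The A673 response minus the SK-N-MC response was -0.56 (SE 0.26, limma adjusted p = 1.00), at levels below the gene median of every array. EZH1 was lower in SK-N-MC (-0.24 and -0.02) and higher in A673 (0.13 and 0.0055), a difference of 0.20 (SE 0.25, limma adjusted p = 1.00). Neither passed the direct test, and 20% of all genes show such opposite signs in these 4 arrays, where each line shares 1 control array.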

How the results depend on the processing

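The difference between the lines of EZH2, EZH1, SUZ12 and JARID2 kept its direction and its call under every alternative run that held the gene; EZH2 ranged from -0.85 to -0.67 and SUZ12 from -1.43 to -1.31. With array after array left out, 4 to 6 of the 8 genes were called. With a limit of 6 on the mean log2, which leaves 4 of the 8 genes to be tested, 3 were called, beside 48.9% of all genes. The further PRC2 list then had 2 calls among 4 genes, and the further PRC1 list 0 with 1 gene left. The CDK inhibitors and the neural and endothelial list had 0 genes left. With a limit of 4, where 42.5% of all genes were called, the further PRC2 list had 4 calls among 7 genes. The neural and endothelial list then had 1 gene left, which was called. With the siRNA arrays alone 4 of the 8 genes were called, and CBX7 stood at -0.14 between the lines. No alternative gave a call among the 8 genes in a comparison of siRNA arrays. The sign of differences near 0 was not stable there: across lines EZH1 stood at 0.011 after a second quantile normalization, and RING1 in A673 at 0.016 with the mean of its probe sets.

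Signs also changed with single arrays left out. Between the lines CBX7 ran from -0.14 to 0.18. Silencing across lines ran from -0.13 to 0.067 for EZH1, -0.091 to 0.030 for SUZ12, -0.25 to 0.045 for CBX2, -0.23 to 0.33 for CBX7 and -0.33 to 0.043 for JARID2. Within lines JARID2 ran from -0.11 to 0.20 in SK-N-MC, and in A673 SUZ12 ran from -0.061 to 0.12, CBX2 from -0.058 to 0.15 and EZH2 from -0.062 to 1.16e-04. Between the siRNAs EZH1 ran from -0.23 to 0.13, EZH2 from -0.20 to 0.085, CBX7 from -0.031 to 0.37, RING1 from -0.017 to 0.20 and SUZ12 from -0.085 to 0.18. The cause of these changes was not tested.

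The numbers 2 and 3 are shared by the titles of both lines. That they name the same siRNAs, and not replicates, is a reading of the titles. With the siRNA number as a replicate block, 6 of the 8 genes were called between the lines, and the block changed no call among them. The further PRC2 list then had 5 calls (2 higher in A673) and the further PRC1 list 10. The siRNA 2 minus siRNA 3 difference correlated between the lines at 0.0663 across genes, with only 2 pairs.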

Other observations

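UTP6, which came up among the genes most like JARID2, is the neighbour of SUZ12 in the RefSeq order of genes, so the 5 measured genes on each side of every Polycomb gene were read as well. This was chosen after the values were seen and is given without a test. Next to JARID2, 7 of 10 neighbours were called lower in A673 and 1 higher, with a median difference of -0.78: CD83 stood at -1.68 (SE 0.16), RNF182 at -1.31 (SE 0.19), MCUR1 at -0.89 (SE 0.12) and RANBP9 at -0.86 (SE 0.12). Next to SUZ12, 5 of 10 were lower and 0 higher, with a median of -0.53: UTP6 stood at -1.10 (SE 0.11), C17orf75 at -0.98 (SE 0.14) and RHOT1 at -0.57 (SE 0.14). Next to EZH1, 5 of 10 were lower and 0 higher, with VPS25 at -1.04 (SE 0.13) and COA3 at -1.03 (SE 0.14).

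Next to RING1, 4 of 10 neighbours were lower in A673 and 0 higher. Around EED, which was not lower in A673, 0 of 10 were lower and 5 higher, with a median of 0.36. Around EZH2 the neighbours gave 1 lower and 1 higher with a median of -0.08, and around CBX2 2 lower and 1 higher with a median of -0.21. Around CBX7, 1 was lower and 2 were higher, with a median of -0.04. Over all genes 11.4% were called lower in A673 and 13.5% higher.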
